A study of Homo sapiens with 4 samples.

Results

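Chromosomes 14 and 15 are acrocentric chromosomes, in which a short arm of satellite and ribosomal DNA precedes a long arm that carries nearly all of the genes. All bins of the deposited bin list on these chromosomes were taken, 443 on chromosome 14 and 413 on chromosome 15, which made 856 of the 14444 bins in the list, together with every contact score between bins of the same chromosome. Within chromosome 14, the 25 bins centred from 83 to 88 Mb (hg19) were followed as a block. The chromosomes and the block were chosen by earlier results on the same maps, in which a bin of the block had stood out for its gain of distal contact between the Grow and OIS maps, so the OIS minus Grow values of the block are given as a description. The block had been named as gene-free, which the annotation does not bear out: FLRT2, which encodes a transmembrane protein with leucine-rich repeats, starts within it.

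The study mapped the folding of chromosomes by Hi-C in IMR90 cells, a strain of normal human lung fibroblasts, to find how depletion of the chromatin protein HMGA1 changes it. The cells carry the pLNCX2 ER:HRAS G12V construct, a fusion whose RAS activity is switched on by 4OHT. One map was deposited for each of 4 conditions. Grow cells proliferated without 4OHT, and OIS cells were in oncogene-induced senescence (RIS in the labels) after 6 days in 100 nM 4OHT. Grow-shA1 and OIS-shA1 cells, grown or treated in the same way, also carried the pMSCV miR shHMGA1 vector against HMGA1, and each of these maps pools 2 samples. The Grow and OIS maps had been made by the laboratory before, in other experiments, so in any difference between an shA1 map and its partner the knockdown and the data set cannot be told apart. Contact scores cannot show whether HMGA1 was depleted or whether the cells carried fibroblast markers. With 1 map per condition there is no replicate error, and no test was made. The SD given beside a value is the spread over bins or over pairs of bins of one chromosome, which share their map and are not independent.

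Hi-C contacts sort chromosomes into an A compartment, rich in genes and GC, and a B compartment, poor in both and often tied to the nuclear lamina. Bins contact their own compartment more often than the other at the same distance. In senescent cells with an activated oncogene, lamina-bound chromatin can gather into dense foci away from the nuclear edge. HMGA1 is an abundant chromatin protein whose AT-hooks hold the minor groove of short runs of A and T, and it is a known component of these foci.

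Bins end at the cutting sites of HindIII, the enzyme that was used to cut the chromatin, and the site AAGCTT lay at all 442 inner bin edges of chromosome 14 and all 412 of chromosome 15. The sites at the outer edges of the block are shown first because they fix its position. They are read from the plus strand of the GRCh37 (hg19) reference, with the site in capitals.
chr14:83001968-83001997: aattgcagattttgAAGCTTacataataat
chr14:88000063-88000092: caggcaagcgaatgAAGCTTcatctgtatt

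The next sequences are the central 200 bases of the block bin with the highest OIS minus Grow value and of the bin with the lowest value on chromosome 15, shown so that base composition can be seen beside the contact values. Capitals mark runs of at least 6 bases that are each A or T.
chr14:87100439-87100638: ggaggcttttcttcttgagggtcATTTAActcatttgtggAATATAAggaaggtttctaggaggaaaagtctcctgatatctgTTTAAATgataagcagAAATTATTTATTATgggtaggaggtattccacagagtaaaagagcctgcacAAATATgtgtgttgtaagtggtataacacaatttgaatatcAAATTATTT
chr15:80100359-80100558: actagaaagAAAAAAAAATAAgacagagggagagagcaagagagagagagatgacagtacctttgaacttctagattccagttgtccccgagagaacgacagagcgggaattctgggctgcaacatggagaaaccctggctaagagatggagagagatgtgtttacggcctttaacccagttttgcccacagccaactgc
The block window had 33.5% GC and 6 such runs, the longest of 14 bases. The window on chromosome 15 had 47% GC and 1 run of 12 bases. Such runs are common: 91.4% of 13572 central windows of bins across the chromosomes held at least 1, against 90.2% on chromosome 14, 87.8% on chromosome 15 and all 25 in the block. Over whole bins the block held 23.6 ± 1.61 runs per kb (SD, n = 25 bins) at 36.2% GC, whereas the other B bins of chromosome 14 held 19.5 runs per kb at 39.7% GC.

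The deposited values are contact scores corrected for distance, on a log-like scale with no stated base, so differences are given in score units and not as folds. Of the bins of chromosome 14, 441 could be given a compartment, 169 A and 272 B in Grow, and of those of chromosome 15, 401 (186 A and 215 B). The share of A bins was 38.3% on chromosome 14, 21st from the highest among 22 autosomes and X, and 46.4% on chromosome 15, 4th from the highest. The first bin of each chromosome, 19 Mb and 20 Mb long, covers the short arm and centromere, is over 99.9% unread bases and had no contact score in any map, so every result below is on the long arm. The maps list from 85479 to 93480 pairs of bins on chromosome 14 and from 68301 to 77641 on chromosome 15. Listing was lowest between A and B bins, where 91.2% of distal pairs of chromosome 14 had a score in Grow but 77.3% in OIS, and 89.1% against 74.1% on chromosome 15. Values below rest on pairs scored in all 4 maps, 73105 distal pairs on chromosome 14 and 56641 on chromosome 15, where distal means over 2 Mb apart.

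**Figure D1:**
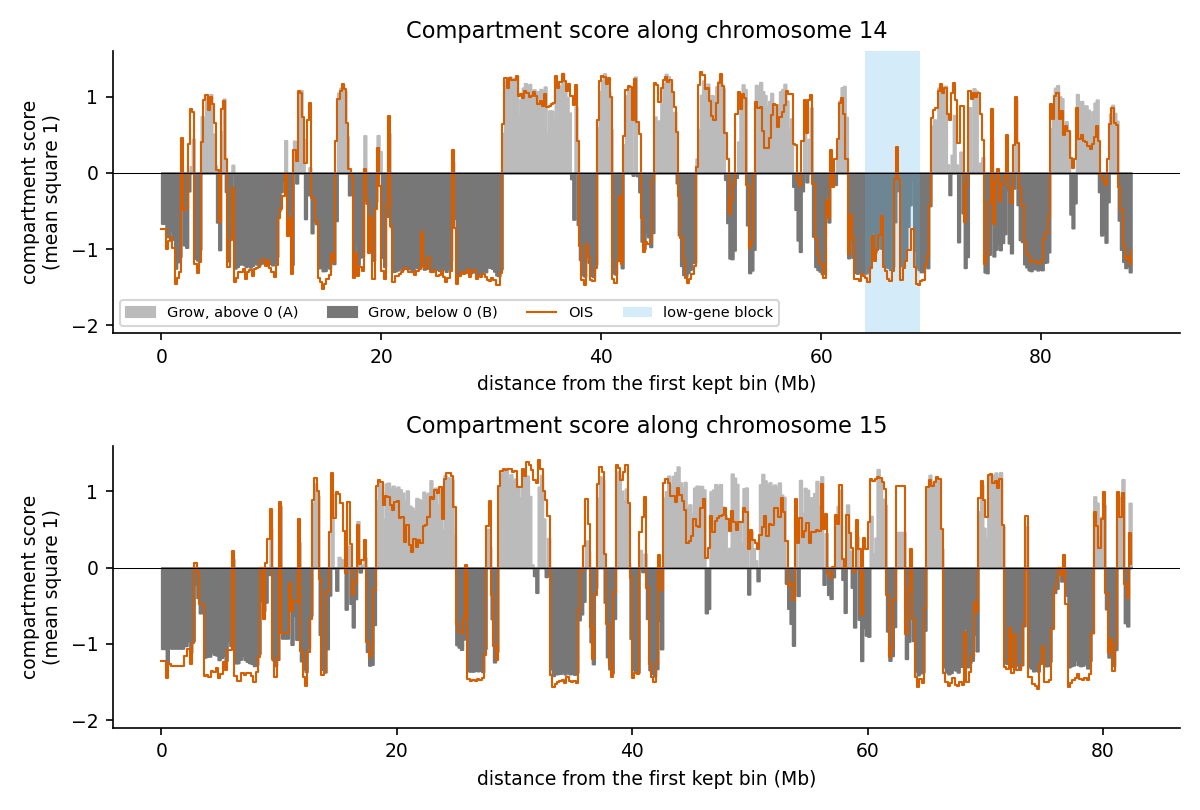
Compartment score of each kept bin along chromosomes 14 and 15 against the distance from the first kept bin (Mb), with Grow as filled bars (above 0 A, below 0 B), OIS as a line and the 83 to 88 Mb block of chromosome 14 shaded. In both Grow and OIS, 235 bins of chromosome 14 and 183 of chromosome 15 were below 0. Another 37 and 32 were below 0 in Grow and above 0 in OIS, some of them within long B runs.

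The 83 to 88 Mb block of chromosome 14 kept a mean compartment score below 0 in all 4 maps, while its contact with other runs changed. All 25 of its bins were B in Grow, and its mean compartment score was -0.951 in Grow, -1.01 in Grow-shA1, -1.03 in OIS and -1.04 in OIS-shA1. Its mean distal score with the B bins of chromosome 14 was 0.541 in Grow, 0.564 in Grow-shA1, 0.628 in OIS and 0.525 in OIS-shA1. The OIS map was the highest of the 4 and the OIS-shA1 map the lowest. Because the block was chosen with its OIS minus Grow gain known, a high place of OIS was favoured beforehand.

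Per bin, distal contact of the block with B bins was higher in OIS than in Grow by 0.0869 ± 0.152 (SD, n = 25 bins), and 19 of 25 bins were above 0, whereas the other B bins of chromosome 14 were lower by a mean of -0.130 ± 0.186 (SD, n = 247 bins). In the block, 5 bins were higher by over 0.2 score units and 0 were lower by as much. Over all 11691 bins tested on 22 autosomes and X, 4.9% were higher and 26.7% lower by over 0.2. Between the shA1 maps the block differed by -0.0399 ± 0.110 (SD, n = 25 bins), with 8 bins above 0, 1 higher by over 0.2 and 1 lower (backgrounds 6.3% and 23.7%). OIS-shA1 minus OIS was -0.103 ± 0.106 (SD, n = 25 bins), with 5 bins lower by over 0.2 and 0 higher (9.7% lower and 3.18% higher over all bins). Grow-shA1 minus Grow was 0.0237 ± 0.0907 (SD, n = 25 bins), with 1 bin higher by over 0.2 and 0 lower (0.411% and 4.68%). The difference between the 2 RAS comparisons was not tested, and the SD over bins exceeded the size of the mean in all 4. The mean of the shA1 pair also turned above 0, to 0.0103, when each map was divided by the SD of its values at the same distance, and to 0.0780 with compartments taken from each map itself.

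FLRT2 splits the block. Its start lies in the bin at 85800399 to 86001355, which moved away from B: the compartment score was -0.235 in Grow, -0.398 in Grow-shA1, 0.336 in OIS and 0.0701 in OIS-shA1. Both maps without 4OHT were below 0 and both with it above 0. Distal contact of this bin with B bins was lower by -0.164 in OIS than in Grow and its contact with A bins higher by 0.247. The gene runs on to 86120772, so most of it lies in the next bin, counted with the telomere side. That next bin scored -0.223 in Grow, 0.000649 in Grow-shA1, -0.0869 in OIS and -0.220 in OIS-shA1. It was thus below 0 in both maps with 4OHT, unlike the bin of the start. The 14 bins on the centromere side of the start bin changed little with B bins in OIS minus Grow (0.0266 ± 0.0891). They were lower between the shA1 maps (-0.106 ± 0.0468, 0 of 14 above 0). The 10 bins on the telomere side of the start bin held all 5 that passed 0.2. Their means were 0.196 ± 0.156 in OIS minus Grow and 0.0639 ± 0.0940 between the shA1 maps (SD over bins).

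The highest single bin lay on the telomere side, at 87000048 to 87201029, with no protein-coding gene. Its mean score with 245 B bins was 0.171 in Grow, 0.111 in Grow-shA1, 0.626 in OIS and 0.310 in OIS-shA1, so OIS stood above the other 3 maps. The bin was picked for its OIS minus Grow value, which favours a high score in OIS, so this order is a description. The difference was 0.455 in OIS minus Grow and 0.199 between the shA1 maps, while the SD of the former over its pairs was 0.635. At the edges of the block, the first bin inside and its neighbour outside had OIS minus Grow values of -0.130 and -0.149, and the last bin inside and its neighbour outside 0.0493 and -0.0111, so neither edge marked a step.

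**Figure D2:**
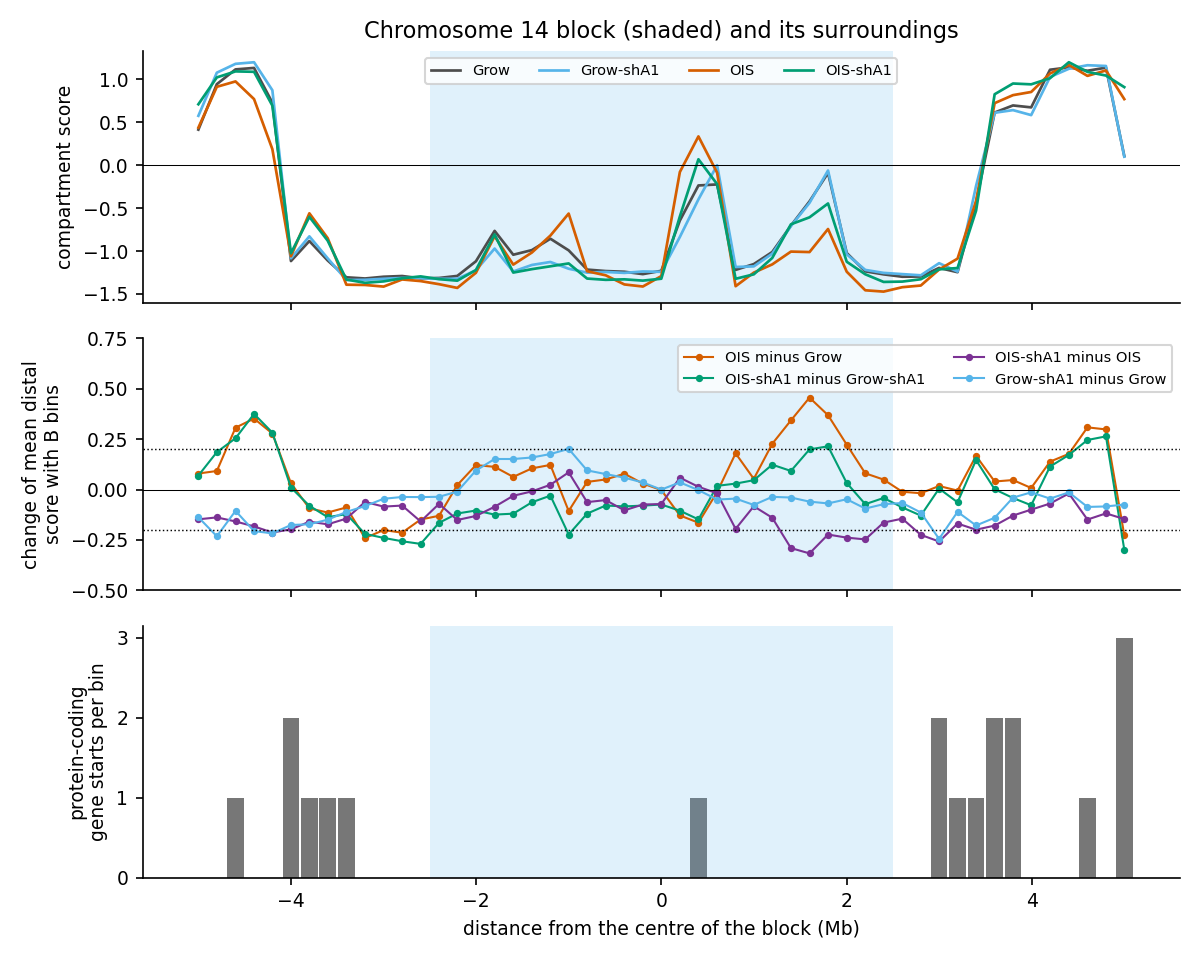
Compartment score in each map (top), difference of mean distal score with B bins in score units (middle, dotted lines at 0.2 above and below 0) and number of protein-coding gene starts (bottom) for each bin, against the distance from the centre of the block (Mb), with the block shaded. The bin where FLRT2 starts is the only bin of the block with a gene start and crosses 0 in OIS. OIS minus Grow is highest, at 0.455, on the telomere side of that bin.

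Split by partner, the block showed changes of both signs that were much larger than its mean. Chromosome 14 has 8 runs of at least 10 consecutive B bins. The block, which lies in the run from 81.4 to 89 Mb, had higher scores in OIS than in Grow with all 5 runs on its centromere side and lower scores with both runs on its telomere side. Its highest gain was with the run from 25.6 to 30.2 Mb, which holds NOVA1, the gene of a neuronal RNA-binding protein: the mean score over 557 pairs was 0.468 in Grow, 0.227 in Grow-shA1, 1.16 in OIS and 0.883 in OIS-shA1. Both maps with 4OHT stood above both without it. The gain was 0.693 ± 0.553 (SD, n = 557 pairs) without shA1 and 0.655 ± 0.605 with it. With the run from 39.8 to 45.4 Mb around LRFN5, which encodes a neuronal adhesion protein, the gains were 0.626 and 0.619. The runs from 45.6 to 50 Mb (0.481 and 0.391), 32.6 to 35 Mb (0.363 and 0.135) and 19 to 21.6 Mb (0.332 and 0.220) gave smaller values.

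On the telomere side the order was turned. With the run from 94.6 to 96.6 Mb, which holds the SERPINA cluster of protease inhibitors and DICER1, the mean score of the block was 0.239 in Grow, 0.741 in Grow-shA1, -0.595 in OIS and -0.218 in OIS-shA1. Both maps with 4OHT lay below both without it, and each shA1 map lay above its partner. The difference was -0.833 ± 0.602 (SD, n = 245 pairs) in OIS minus Grow and -0.959 ± 0.550 between the shA1 maps. With the run from 96.8 to 99.8 Mb, which holds BCL11B, a T-cell and neuronal transcription factor, the differences were -0.690 and -0.903.

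Pooled over the 2275 pairs with the 5 runs on the centromere side, the mean was 0.559 in Grow, 0.407 in Grow-shA1, 1.11 in OIS and 0.886 in OIS-shA1. Over the 619 pairs with the 2 runs on the telomere side it was 0.629, 1.04, -0.118 and 0.116 in the same order. The RAS difference was thus 0.550 without shA1 and 0.479 with it on the centromere side, and -0.747 and -0.925 on the telomere side. The shA1 maps were lower than their partners with the centromere side, by -0.153 in growing and -0.224 in senescent cells, and higher with the telomere side, by 0.412 and 0.234. All of these pooled values kept their sign under the 7 alternative settings tried, although the SD over pairs was from 0.396 to 0.638. Within the block, scores up to 2 Mb apart were lower in OIS than in Grow by -0.405 and those over 2 Mb apart higher by 0.116, with -0.269 and 0.388 between the shA1 maps.

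**Figure D3:**
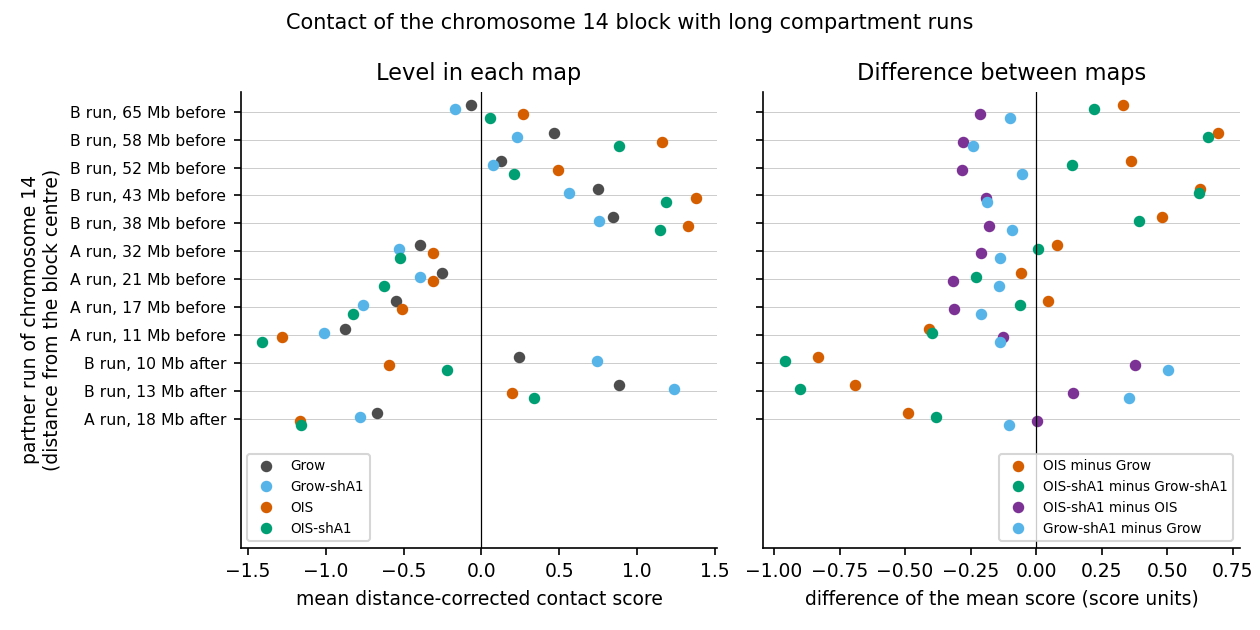
Mean distance-corrected contact score of the 83 to 88 Mb block with each run of at least 10 A or B bins of chromosome 14 in the 4 maps (left) and the difference between maps in score units (right), with each run named by its distance from the block centre. With 4OHT the 5 B runs before the block moved to higher scores, by 0.332 to 0.693 without shA1, and both B runs after it to lower scores.

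Both gains and losses occurred among the long B runs of chromosome 14. Of the 28 pairs that the 8 runs form, the run of the block included, 8 were higher by over 0.2 in OIS than in Grow and 12 lower. Between the shA1 maps, 7 were higher and 11 lower. The 4 runs with the lowest GC, at 25.6 to 30.2, 39.8 to 45.4, 45.6 to 50 and 81.4 to 89 Mb (35.4% to 37.3%), all scored higher with one another in OIS than in Grow, by 0.316 to 0.546, and by 0.232 to 0.817 between the shA1 maps. All 4 scored lower with the run from 94.6 to 96.6 Mb (45.4% GC) and with the run from 96.8 to 99.8 Mb (43.0% GC), by -0.391 to -0.765 in OIS minus Grow. These last 2 runs did not lose contact with each other (0.0633 and 0.125). The runs from 19 to 21.6 and from 32.6 to 35 Mb did not follow one group. The former lost contact with the runs from 25.6 to 30.2 Mb (-0.553) and 39.8 to 45.4 Mb (-0.397) but gained it with the run of the block (0.401), and the latter lost contact with the run from 39.8 to 45.4 Mb (-0.278). The grouping by GC was read from these values after they were seen. Over single bins of chromosome 14, the OIS minus Grow difference in distal B contact correlated with GC at r = -0.382 and the shA1 pair at -0.365, with neighbouring bins not independent.

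When the 731 distal pairs of chromosome 14 with the largest OIS minus Grow increase, the top 1%, were drawn as a network, its densest core held 22 bins from 26.8 to 87.4 Mb. Each bin of this core had at least 4 links to other bins in it. All 22 were B, their GC was 35.2%, and 9 lay in the block. The smallest increase among these pairs was 1.36. These are the values that had singled out the block, so its place in the core is no separate result. The densest core for the shA1 pair held 163 bins, of which 57.7% were B and 17 lay in the block, with 40.5% GC against 40.9% for the chromosome. Its bins had at least 3 links each. A core at 3 links is looser than a core at 4, so the sizes and make-up of these cores are not on one scale. On chromosome 15 the densest core for OIS minus Grow, also at 3 links, held 72 bins, of which 19.4% were B. Its GC was 45.2% against 42.2% for the chromosome.

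Over chromosome 14 as a whole, compartment strength (the mean of A-A and B-B scores minus the A-B score) was 0.856 in Grow, 0.908 in Grow-shA1, 0.937 in OIS and 0.930 in OIS-shA1 for distal pairs. OIS minus Grow was 0.0817, 12th among the 23 chromosomes, and the shA1 pair gave 0.0217. Both turned below 0, to -0.0748 and -0.0594, when each map was divided by the SD of its values at the same distance, and to -0.0805 and -0.0871 when pairs with no listed score were set to 0. The class means moved in part against one another. In OIS against Grow, A-A pairs scored 0.295 against 0.241, B-B pairs 0.551 against 0.657, and A-B pairs -0.515 against -0.407. By distance, strength from 2 to 5 Mb was 1.19 in Grow and 1.55 in OIS (1.56 in OIS-shA1), whereas from 20 to 50 Mb it was 0.790 and 0.776.

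Across all 425 bins of chromosome 14 with at least 50% of their distal pairs, 25 were higher and 150 lower by over 0.2 in distal B contact in OIS minus Grow, which is 5.88% and 35.3% of them. The backgrounds over all chromosomes were 4.9% and 26.7%. Between the shA1 maps 36 were higher and 127 lower, or 8.47% and 29.9% against 6.3% and 23.7%. OIS-shA1 minus OIS gave 11 higher and 28 lower, or 2.59% and 6.59% against 3.18% and 9.7%. Grow-shA1 minus Grow gave 1 higher and 16 lower, or 0.235% and 3.76% against 0.411% and 4.68%. The shares of lower bins were thus above background in both RAS comparisons and below it in both shA1 comparisons.

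In OIS, 37 of 441 bins of chromosome 14 had passed from B to A (8.39%, background 8.9%) and 3 from A to B (background 0.86%), and between the shA1 maps 33 and 2 (backgrounds 7.83% and 1.37%). Of the bins that passed to A, 28 did so in both, out of 37 and of 33. OIS-shA1 minus OIS gave 7 and 4 (1.46% and 3.09%), and Grow-shA1 minus Grow 8 and 2 (1.64% and 1.69%). The 37 bins had a median score of -0.252 in Grow and 0.391 in OIS. They were richer in GC than the 235 bins that stayed B, at 43.7% ± 4.24 against 38.7% ± 3.87 (SD over bins), and 30 of them held a gene start. Among them, chosen after their values were seen, were a bin with SNAPC1, a subunit of the complex that activates snRNA genes, and the 3′ part of HIF1A, the hypoxia regulator, and one with TGFB3, which encodes a TGF beta ligand. The bin of SERPINA3, an acute-phase protease inhibitor, scored -0.930 in Grow, -1.16 in Grow-shA1, 0.0507 in OIS and -0.633 in OIS-shA1, and was in A in the OIS map only. The 3 bins that passed to B held part of STXBP6, part of PRKD1, and no protein-coding gene.

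Outside the block, the largest gain of distal B contact on chromosome 14 was in an A bin at 81004306 to 81199533 within CEP128, a centriole gene, at 0.351 in OIS minus Grow and 0.375 between the shA1 maps. The largest losses were at 91806699 to 91998656 with CCDC88C and PPP4R3A (-0.556 and -0.484), at 71394813 to 71596667 within PCNX1 (-0.550 and -0.422) and at 104199972 to 104399821 with ZFYVE21 and PPP1R13B (-0.483 and -0.469). The mean score of the CCDC88C bin with B bins was 0.291 in Grow, 0.135 in Grow-shA1, -0.265 in OIS and -0.348 in OIS-shA1. Both maps with 4OHT lay below both without it. CCDC88C binds the Wnt pathway protein Dishevelled, and PPP4R3A is a regulatory subunit of protein phosphatase 4.

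The counts of the gene lists are read against the 35.3% of bins of chromosome 14 and 26.7% of all bins that were lower by over 0.2 in OIS minus Grow, and most lists are small. The 3 bins of the imprinted cluster of chromosome 14, of which those of DLK1 and RTL1 are neighbours, were all lower. The bins of DLK1, a Notch-like growth regulator, RTL1, a retrotransposon-derived gene, and DIO3, which inactivates thyroid hormone, all 3 lost distal B contact by over 0.2, with values of -0.381, -0.379 and -0.286 in OIS minus Grow and -0.368, -0.308 and -0.267 between the shA1 maps. Of 7 bins of signalling genes 4 were lower by over 0.2 in OIS minus Grow: those of the AP-1 genes FOS (-0.204) and BATF (-0.312) and of SERPINA1 (-0.465) and SERPINA3 (-0.449). The bins of FOS and BATF are neighbours, as are those of SERPINA1 and SERPINA3, so these 4 are not independent. The FOS value turned to 0.175 when pairs with no listed score were set to 0. NFKBIA, the NF-kB inhibitor, had -0.109 and HIF1A -0.100. Of 4 matrix gene bins, those of TGFB3 (-0.206) and of FBLN5, an elastic fibre protein (-0.345), were lower by over 0.2. Of 6 long genes, the synaptic adhesion gene NRXN3 (-0.347) and RGS6, a G protein regulator (-0.355), were lower by over 0.2. Of 4 cell cycle bins CDKN3 was (-0.229), and of 7 olfactory receptor bins that of OR5AU1 was (-0.357). In lists of 4 to 7 bins, 1 or 2 lower bins are about what the share over the chromosome gives or fewer. No bin in these lists was higher by over 0.2 in OIS minus Grow.

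Of the 7 stretches of chromosome 14 in which 10 or more bins hold no gene start, that from 86001356 to 88399689, on the telomere side of FLRT2, was the only one with a mean distal B contact above 0 in OIS minus Grow (0.161 ± 0.163, SD over 12 bins). It holds the highest bin of the block, which was chosen with OIS minus Grow values known, so its sign is no separate result. Between the shA1 maps its mean was 0.0352, and it was not alone above 0. The stretches at 27199051 (0.0519) and 42198574 (0.00115) were also above 0 there, and the rest below. The stretch at 78800735, which overlaps NRXN3, was nearest to 0, at -0.00376 ± 0.162. The stretch from 82201427 to 85800398 had -0.0239 ± 0.126, those at 27199051, 40002538 and 42198574 had -0.104, -0.189 and -0.121, and that at 97400391, by VRK1, -0.316 ± 0.0474.

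On chromosome 15, B-B pairs lost contact in both RAS comparisons, by -0.128 in OIS minus Grow and by -0.194 between the shA1 maps. On chromosome 14 these differences were -0.106 and -0.102. A-B pairs of chromosome 15 also scored lower in OIS than in Grow (-0.104), as did A-A pairs (-0.0370), so the fall was not confined to B-B pairs. Its compartment strength was 0.755 in Grow, 0.773 in Grow-shA1, 0.777 in OIS and 0.679 in OIS-shA1, so that OIS-shA1 stood below the other 3. OIS minus Grow was 0.0221 and the shA1 pair -0.0941. These ranked 19th and 21st of 23 chromosomes from the top, and 20 and 12 of the other 21 chromosomes were above 0. OIS minus Grow was not stable: it turned below 0 in 4 of 9 alternatives, to -0.128 when each map was divided by the SD of its values at the same distance. The shA1 pair was below 0 in 8 of 9 and reached 0.0964 with compartments from each map itself. OIS-shA1 minus OIS was -0.0981 and below 0 in 9 of 9, but it came close to 0, at -0.00104, with compartments from each map itself.

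Mean scores between B bins of chromosome 15 were 0.714 in Grow, 0.651 in Grow-shA1, 0.587 in OIS and 0.457 in OIS-shA1. The senescent maps were lower than the growing ones and each shA1 map lower than its partner. A-A pairs lay between 0.211 and 0.263 in the 4 maps and A-B pairs between -0.269 and -0.373. The B-B loss was largest from 10 to 20 Mb, where the mean was 0.814 in Grow, 0.791 in Grow-shA1, 0.554 in OIS and 0.390 in OIS-shA1. From 50 to 100 Mb the OIS minus Grow difference was 0.00162. On chromosome 14 the B-B differences in the 10 to 20 Mb band were -0.121 in OIS minus Grow and -0.166 between the shA1 maps, against -0.260 and -0.401 on chromosome 15.

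**Figure D4:**
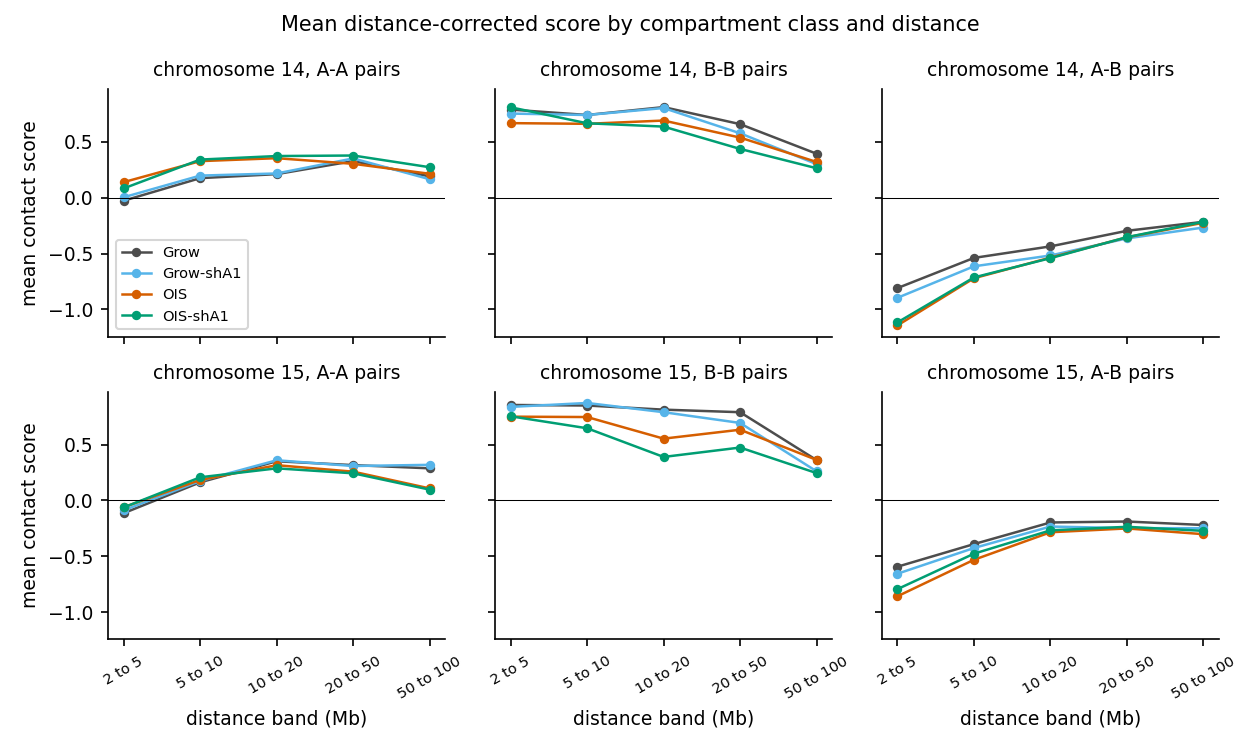
Mean distance-corrected contact score of A-A, B-B and A-B pairs in 5 distance bands (Mb) on chromosomes 14 and 15, with 1 line per map. On chromosome 15 the B-B means from 10 to 20 Mb run from 0.814 in Grow down to 0.390 in OIS-shA1, and on chromosome 14 from 0.813 down to 0.638.

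Chromosome 15 has 6 B runs and 7 A runs of at least 10 bins. None of the 7 A runs had higher distal B contact in OIS than in Grow, but 5 of 7 did between the shA1 maps and 7 of 7 in OIS-shA1 minus OIS. The A run from 62.6 to 66.2 Mb differed most, with -0.0965 ± 0.0949 in OIS minus Grow and 0.115 ± 0.110 between the shA1 maps (SD over 18 bins). The B runs moved the other way: 0 of 6 were higher in OIS-shA1 minus OIS, and 4 of 6 were lower by more between the shA1 maps than in OIS minus Grow. The run from 86.4 to 89.4 Mb, which holds AGBL1 and the neurotrophin receptor gene NTRK3, had -0.0934 ± 0.105 and -0.258 ± 0.0890 (SD over 15 bins), and the run from 53 to 56 Mb, with the synaptic gene UNC13C, -0.151 and -0.267. On chromosome 14 the A runs were lower in OIS minus Grow in 5 of 5 and in 3 of 5 between the shA1 maps. These differences between comparisons were not tested.

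**Figure D5:**
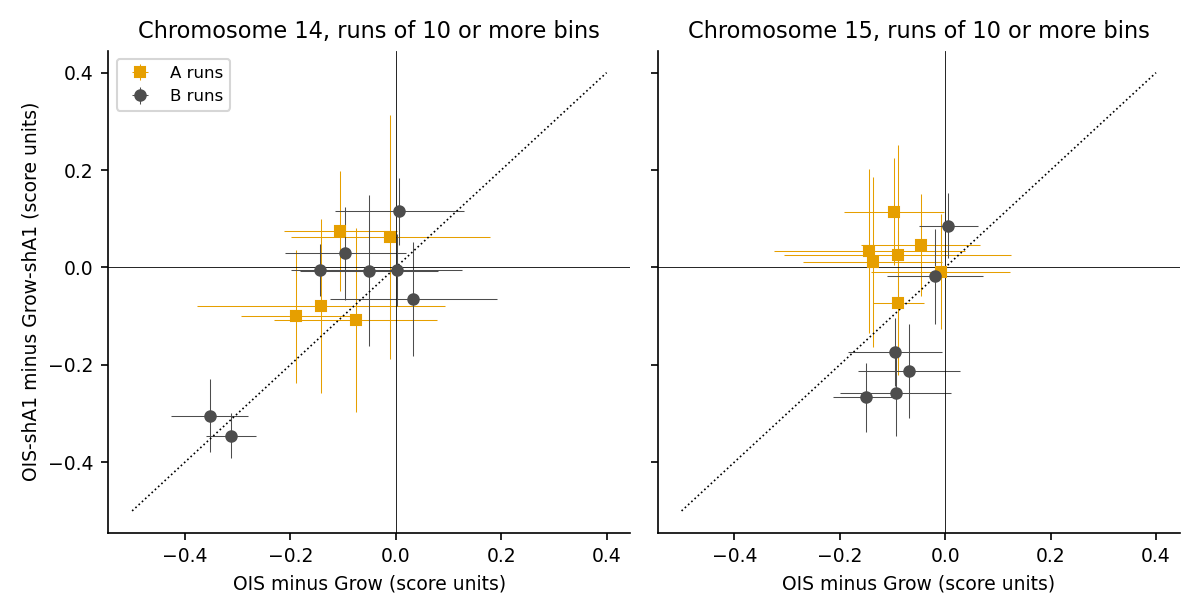
Difference in mean distal contact with B bins for each run of at least 10 A (squares) or B (circles) bins, OIS minus Grow on the x axis and OIS-shA1 minus Grow-shA1 on the y axis, both in score units, with the SD over the bins of a run as error bars and equality as a dotted line. Most A runs of chromosome 15 lie above the line and most B runs below it, and the 2 runs of chromosome 14 at the lower left are those of 94.6 to 96.6 and 96.8 to 99.8 Mb.

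Among the 15 pairs of long B runs of chromosome 15, 4 were higher by over 0.2 in OIS than in Grow and 0 lower. They joined the 2 runs of 15q11-q13, from 20 to 26 Mb and 26.2 to 29.2 Mb, with the 2 runs nearest the telomere, from 86.4 to 89.4 Mb and 93.6 to 99.2 Mb, over mean distances of 60.4 to 72.9 Mb, by 0.203 to 0.291. Within the run from 20 to 26 Mb, some bins between 20.2 and 23.6 Mb had too few scores and were left out. For the farthest pair of runs the mean score was 0.378 in Grow, 0.184 in Grow-shA1, 0.669 in OIS and 0.420 in OIS-shA1. The difference was 0.291 ± 0.631 without shA1 and 0.236 ± 0.704 with it (SD, n = 531 pairs), so the SD over pairs was larger than either. OIS-shA1 was lower than OIS in 14 of the 15 pairs of runs, by over 0.2 in 7. Over all 4453 pairs of bins between the 6 runs the mean was 1.13 in Grow, 1.03 in Grow-shA1, 1.23 in OIS and 1.03 in OIS-shA1. OIS minus Grow was 0.100, but -0.115 when each map was divided by the SD of its values at the same distance. OIS-shA1 minus OIS was -0.204 and stayed below 0 in 7 of 7 alternatives.

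Between the first and last 5 Mb of the readable long arm, contact was higher in OIS than in Grow on chromosome 15, by 0.117 ± 0.731 (SD, n = 275 pairs), and lower on chromosome 14, by -0.0444 ± 0.695 (SD, n = 285 pairs). Both differences were far below the SD over pairs. The other acrocentric chromosomes 13, 21 and 22 had -0.0885, -0.274 and -0.169, of which that of chromosome 21 rests on 12 pairs.

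Of 381 bins of chromosome 15 with at least 50% of their distal pairs, 4 were higher and 95 lower by over 0.2 in distal B contact in OIS minus Grow, or 1.05% and 24.9% against backgrounds of 4.9% and 26.7%. Between the shA1 maps 15 were higher and 131 lower, which is 3.94% and 34.4% of them against backgrounds of 6.3% and 23.7%. OIS-shA1 minus OIS gave 19 and 58, or 4.99% and 15.2% against 3.18% and 9.7%, and Grow-shA1 minus Grow 0 and 10 (backgrounds 0.411% and 4.68%). From B to A passed 32 of 401 bins in OIS minus Grow (7.98%, background 8.9%) and 39 between the shA1 maps (9.73%, background 7.83%), 23 of them in both. From A to B passed 0 in either (backgrounds 0.86% and 1.37%). OIS-shA1 minus OIS gave 12 to A and 2 to B (backgrounds 1.46% and 3.09%), and Grow-shA1 minus Grow 7 and 4 (1.64% and 1.69%).

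The 32 bins had a median score of -0.337 in Grow and 0.258 in OIS, and 23 of them held a gene start. Their GC was 43.1% ± 4.26 against 40.9% ± 3.06 for the 183 bins that stayed B (SD over bins), a smaller gap than on chromosome 14. The longest run to pass was of 3 bins, from 79599167 to 80201848, with TMED3, MINAR1 and MTHFS, the last an enzyme of folate metabolism. Its mean compartment score was -0.859 in Grow, -0.693 in Grow-shA1, 0.408 in OIS and 0.885 in OIS-shA1, with both maps with 4OHT above 0. The bins from 51600394 to 51998961, with CYP19A1, which encodes aromatase, and DMXL2, went from -0.216 to 1.13.

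The bins around 80 Mb also had the largest losses of distal B contact on chromosome 15. The MTHFS bin at 79999069 to 80201848 scored 0.450 with B bins in Grow, 0.236 in Grow-shA1, -0.141 in OIS and -0.449 in OIS-shA1. The difference was -0.591 in OIS minus Grow and -0.685 between the shA1 maps. The TMED3 bin at 79599167 had -0.540 and -0.728, and the bin at 80400705 with ZFAND6 and FAH, the last enzyme of tyrosine breakdown, -0.559 and -0.409. The largest gains were smaller. IGF1R, the receptor of insulin-like growth factor 1, lay in the bins of the first and the third, at 99400391 (0.282 and 0.160) and 99200731 (0.224 and 0.271), and no protein-coding gene lay in the second, at 39194755 (0.233 and 0.189).

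The matrix and TGF beta genes of chromosome 15 lay in 8 bins, all A. Of these, 6 were above 0 in OIS minus Grow with 0 past 0.2, while between the shA1 maps 8 of 8 were above 0 and 4 were higher by over 0.2, against 3.94% of the bins of the chromosome and 6.3% of all bins. These were the bins of GREM1, a BMP antagonist (0.280), FBN1, which encodes fibrillin (0.402), and the signal transducers SMAD3 (0.272) and SMAD6 (0.233). SMAD6, whose bin lies close to that of SMAD3, turned to -0.0279 with compartments from each map itself. The FBN1 bin had a mean score with B bins of -0.495 in Grow, -0.440 in Grow-shA1, -0.306 in OIS and -0.0379 in OIS-shA1, highest in OIS-shA1. All 8 were also above 0 in OIS-shA1 minus OIS, as were 64.6% of the A bins of the chromosome. Over all A bins of the chromosome the median was -0.0925 in OIS minus Grow and 0.0128 between the shA1 maps. Between the shA1 maps 50.3% of A bins were above 0, and no B bin passed 0.138. All 15 bins of the chromosome higher by over 0.2 there thus lay among its 181 A bins, so the share of all bins understates that of A bins.

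Of 8 cell cycle bins of chromosome 15, those of CCNB2, a mitotic cyclin (-0.243), and KIF23, a kinesin of cell division (-0.387), were lower by over 0.2 in OIS minus Grow and 0 between the shA1 maps. On the chromosome 24.9% and 34.4% of bins were lower, so 2 of 8 is about the share of all its bins. Of 8 long genes, all in B, NTRK3 (-0.207) and MCTP2 (-0.224) were lower in OIS minus Grow, and UNC13C (-0.352), AGBL1 (-0.362) and NTRK3 (-0.336) between the shA1 maps, again near those shares. Of 5 signalling bins none passed 0.2 in OIS minus Grow, and that of ISG20, an interferon-induced nuclease, was lower between the shA1 maps (-0.328). The 3 bins of the imprinted genes of 15q11-q13, which hold MKRN3, MAGEL2 and NDN, SNRPN, and UBE3A, were all B and above 0, with values of 0.0738, 0.0169 and 0.0460 in OIS minus Grow and 0.105, 0.138 and 0.117 between the shA1 maps. None passed 0.2, unlike the imprinted bins of chromosome 14. Listing was thin: 51.4%, 52.5% and 80.8% of their distal pairs had scores, in the same order, against the 50% needed. The DLK1 bin of chromosome 14 had 52.6%. The difference between the 2 clusters was not tested. A single olfactory receptor bin could be read, at 0.0531.

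The 2 chromosomes were alike in how much of the RAS difference was seen again with shA1. Across blocks of 5 by 5 bins, which smooth the noise of single pairs, the RAS difference with shA1, plotted against that without it, had a slope of 0.750 on chromosome 14 (r = 0.785 across 3605 blocks) and 0.744 on chromosome 15 (r = 0.693 across 2970 blocks). The other 21 chromosomes ranged from 0.578 to 0.795. These 2 comparisons share no map, but blocks of 1 chromosome share bins and are not independent. Noise in the maps lowers the slope, which was 0.380 and 0.275 over single pairs.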

How the data were processed

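Hi-C was performed on IMR90 ER:HRAS G12V cells, cut with HindIII and ligated within nuclei. Per the study's methods, reads were aligned to hg19 with HiC-Pro, artefacts and duplicates were removed, and replicates were compared with HiCRep. The authors deposited 1 ICE-normalised, distance-corrected score per pair of 200 kb bins and map. The base of this log-like score, any prior count, read counts and depth are not given in the sources used here, so counting error is unknown and could not be set beside a value. Distance correction removes the mean decay with distance, so a score compares pairs at one distance only, and ICE balancing means that a gain of a bin with one partner goes with a loss elsewhere. Unlisted pairs, commoner in the maps with 4OHT, were left out.

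Bins with scores for at least 50% of pairs were kept (13604 on 22 autosomes and X). The compartment score was the first principal component of each chromosome's correlation matrix, scaled to a mean square of 1 and signed by gene density, with A and B taken from the Grow map. Distal contact of a bin with B bins was the mean over common pairs over 2 Mb apart, with at least 10 pairs. Bin calls needed at least 50% of distal pairs listed (11691 bins) and a difference over 0.2 score units. Gene starts were those of protein-coding genes in GENCODE 44 mapped to GRCh37, whose chromosome lengths matched the bins. Named were the 3 highest and lowest bins per chromosome, fixed gene lists, and runs of 10 or more bins with no gene start. The chromosomes, the block and the lists were chosen with earlier results of these data known. A-T runs were counted as at least 6 consecutive A or T. The procedures were tested on simulated data, in which strengths were recovered and slopes came out low where noise was strong. Alternatives changed the scale, centring, limits, listing, distance, source of compartments and block edges. Python 3.11.15, numpy 2.4.6, pandas 2.3.3, networkx 3.6.1 and matplotlib 3.10.9 were used.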

Additional observations from a re-analysis of the deposited data

Results flagged for a closer look

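The RAS difference had opposite signs without and with shA1 for 2 values, and in neither case was the difference tested. Compartment strength of chromosome 15 was higher by 0.0221 in OIS than in Grow and lower in OIS-shA1 than in Grow-shA1, with -0.0941. Distal contact of the 83 to 88 Mb block of chromosome 14 with B bins was higher by 0.0869 in OIS minus Grow, whereas the shA1 pair gave -0.0399. The block was chosen with OIS minus Grow results known, so a value above 0 in that comparison was favoured beforehand. The signs of 3 of these 4 values changed with at least 1 setting given next, and the exception was the block's OIS minus Grow value.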

How the results depend on the processing

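No paired analysis was possible because each condition has 1 map, in which replicates are pooled, and for the same reason no replicate was left out. Of 248 recomputed main values, 183 stayed within 1.5 times the reported value, 41 kept their sign but moved further, and 24 changed sign. Of 702 recomputed named values past 0.2, 699 kept their sign. The cause of the changes was not tested, apart from fewer or different bins or pairs where a setting uses them. Compartment strength was the least stable result, and contact of the block with long B runs, whose alternatives were chosen after seeing the data, kept its sign throughout.

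Where they moved or turned, values are given first for OIS minus Grow, then for the shA1 pair, then for shA1 in OIS and last for shA1 in Grow. The interaction is the shA1 pair less OIS minus Grow. With each map divided by the SD of its values at the same distance, strength of chromosome 14 became -0.0748, -0.0594 and 0.0640, with an interaction of 0.0154. Strength of chromosome 15 became -0.128, -0.180, -0.0441 and 0.00795, with an interaction of -0.0520. Contact of the block with B bins became 0.0103 in the shA1 pair and -0.0196 in Grow-shA1 minus Grow. Contact of the block with the centromere-side runs became -0.147 in OIS-shA1 minus OIS and -0.231 in Grow-shA1 minus Grow. Pairs between the 6 long B runs of chromosome 15 became -0.115, -0.0870, -0.130 and -0.158.

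With unlisted pairs counted as 0, strength of chromosome 14 became -0.0805, -0.0871, -0.0213 and -0.0147, with an interaction of -0.00663. Strength of chromosome 15 became -0.133, -0.204 and, in Grow-shA1 minus Grow, -0.0443, with an interaction of -0.0707. The shA1 pair between long B runs of chromosome 15, -0.000227 as reported, became -0.000346. With all pairs listed in each map, strength of chromosome 14 became 0.0154, -0.0311, -0.0225 and 0.0240, that of chromosome 15 -0.0484, -0.153 and, in Grow-shA1 minus Grow, -0.00791, and the shA1 pair between the long B runs -0.000572.

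With pairs over 5 Mb apart, strength of chromosome 14 became 0.0536 and -0.00450, that of chromosome 15 -0.00283 in OIS minus Grow, and the shA1 pair between long B runs -0.0116. With every bin with any value that last result became 0.00543, and with scores limited to the 1st to 99th percentile 0.0294. With each map centred at the same distance it became 0.0443, and Grow-shA1 minus Grow of the same pairs -0.0422. Centring also gave the block 0.153, -0.0107 and, in Grow-shA1 minus Grow, 0.0773 with B bins, and -0.0842 in Grow-shA1 minus Grow with the centromere-side runs.

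With compartments from each map itself, strength of chromosome 14 became 0.164, 0.102 and -0.00363, that of chromosome 15 0.124, 0.0964 and -0.00104 with an interaction of -0.0279, and the block 0.233, 0.0780 and, in Grow-shA1 minus Grow, 0.0381. With compartments from the Grow-shA1 map, OIS-shA1 minus OIS strength of chromosome 14 became 0.00556, and strength of chromosome 15 became 0.0530 in OIS minus Grow and 0.0391 in Grow-shA1 minus Grow. With wider edges of the block it gave 0.0551, -0.0638 and, in Grow-shA1 minus Grow, 0.0140. Over single pairs the slope became 0.380 on chromosome 14 and 0.275 on chromosome 15. Among named values, FOS became 0.175 in OIS minus Grow with unlisted pairs as 0, and with compartments from each map SMAD6 became -0.0279 in the shA1 pair. The mean of the chromosome 15 run without gene starts from 86801610 to 88797695, OIS-shA1 minus Grow-shA1, became 0.00286 with the same setting.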
